A study of Gallus gallus with 4 samples.

Results

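HIF1α-DNA binding complexes were mapped near the genes of the ubiquitin and proteasome system, which tag proteins for destruction, remove the tag or degrade the tagged protein. Peaks were selected by the gene symbol of their nearest transcription start site (TSS), which had to begin with a family prefix: UBE, UBA, UBR, UBQLN, USP with a digit, OTUD, TRIM, FBXO, FBXW, FBXL, the PSMA to PSME subunits, CUL with a digit, KLHL, KBTBD, RNF, HERC, NEDD4, ITCH, SMURF, WWP, MARCH, SIAH, VHL, SKP, BTRC, SOCS, ASB, WSB or BTBD. Of 8375 peaks, 142 carried such a symbol, and they named 102 genes. The peaks came from primary lens cells of White leghorn chick embryos at embryonic day 10, mapped by CUT&RUN, in which an antibody guides a nuclease to a bound protein and the short DNA fragments it frees are sequenced. There were 4 libraries, 2 with an antibody to HIF1α and 2 with a control IgG, and cells of all 4 had received 1 mM DMOG for 4 h, an inhibitor of the prolyl hydroxylases that keeps HIF1α from being degraded. The libraries of each antibody were pooled before peaks were called, so every peak has a single value, no value has a replicate error, and the contrast is HIF1α antibody against IgG rather than treated against untreated cells. The cells were a primary culture made by dissociating whole lenses, and no RNA measurement was used here, so the cell type label was not checked against marker genes.

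Ubiquitin is passed from an activating enzyme (E1) to a conjugating enzyme (E2) and then, with the help of a ligase (E3), to the target protein. Ligases give the system its choice of targets, and most are RING proteins, HECT enzymes or cullin complexes whose F-box, BTB or SOCS-box adaptors hold the target. The system controls HIF1α itself, since in normal oxygen the prolyl-hydroxylated protein is bound by VHL, ubiquitinated by a cullin complex and degraded by the proteasome, while deubiquitinases can reverse the tag. The lens also depends on regulated degradation when its fiber cells clear their organelles and form a transparent core.

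Each peak is described by its pileup, a count of HIF1α fragments at the summit, by the IgG background, and by the −log10 of its adjusted p-value (q) from peak calling. Fold enrichment is the pileup plus 1 over the background plus 1. The background could not fall below 1.30 fragments, a floor set by the genome-wide average. The steps between recurring background values put 1 IgG fragment at 0.354 HIF1α fragments. The inverse, 2.83, would be the depth of the pooled IgG libraries over that of the HIF1α libraries, inferred rather than measured. At the floor a summit held at most 3 IgG fragments. Because the values are small whole numbers, peaks share them in blocks: 21 of the 142 peaks had 9 fragments at the floor, which gave a −log10 q of 2.38. at a fold enrichment of 4.35 At the floor, 7 fragments gave a −log10 q of 1.38 (13 peaks), 8 gave 1.81 (16 peaks), 10 gave 3.07 (15 peaks) and 11 gave 3.88 (4 peaks). The exact Poisson 95% interval of a pileup of 9 runs from 4.12 to 17.1 fragments and takes in 136 of the 142 pileups, so most of these peaks cannot be ranked by strength. Positions are on galGal6, and a distance is that to the nearest TSS, which assigns a gene by position alone.

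Ubiquitin and proteasome gene peaks lay nearer to a TSS than the list as a whole, and were of like strength. Of the 142 peaks, 32 were within 3 kb of a TSS (22.5%, Wilson 95% interval 16.4 to 30.1%), against 13.0% of all 8375 peaks. Within 10 kb there were 62 (43.7%, 35.8 to 51.9%), against 30.8% of all peaks, and beyond 100 kb there were 18 (12.7%), against 17.1%. The median distance was 13660 bp (95% interval 8432 to 19382 bp) for these peaks and 23632 bp for all peaks. The 5842 peaks assigned to any gene of the gene table were closer to the whole list than to the pathway peaks, with 13.8% within 3 kb and a median distance of 22716 bp. A TSS was covered by 3 pathway peaks (2.11%, 0.721 to 6.03%), against 0.967% of all peaks. The difference was not tested, since the genes were chosen with results of these data known, and the intervals cover counting error only.

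In strength the pathway peaks were close to the rest. The median pileup was 9 fragments in both sets, the median fold enrichment was 3.97 (95% interval 3.92 to 4.14) against 3.92, and the median −log10 q was 2.28 in both. A −log10 q of at least 3 was reached by 33 of the 142 peaks (23.2%, 17.1 to 30.8%), against 26.5% of all peaks. The background was at the floor for 74 of them (52.1%), against 49.7%. A background over 3 times the floor was found at 4 peaks (2.82%, 1.10 to 7.02%), those of KLHL1 and RNF123 among them, against 7.94% of all peaks. Among the 5842 peaks assigned to any gene of the gene table it was 4.23%, a value inside the interval.

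**Figure D1:**
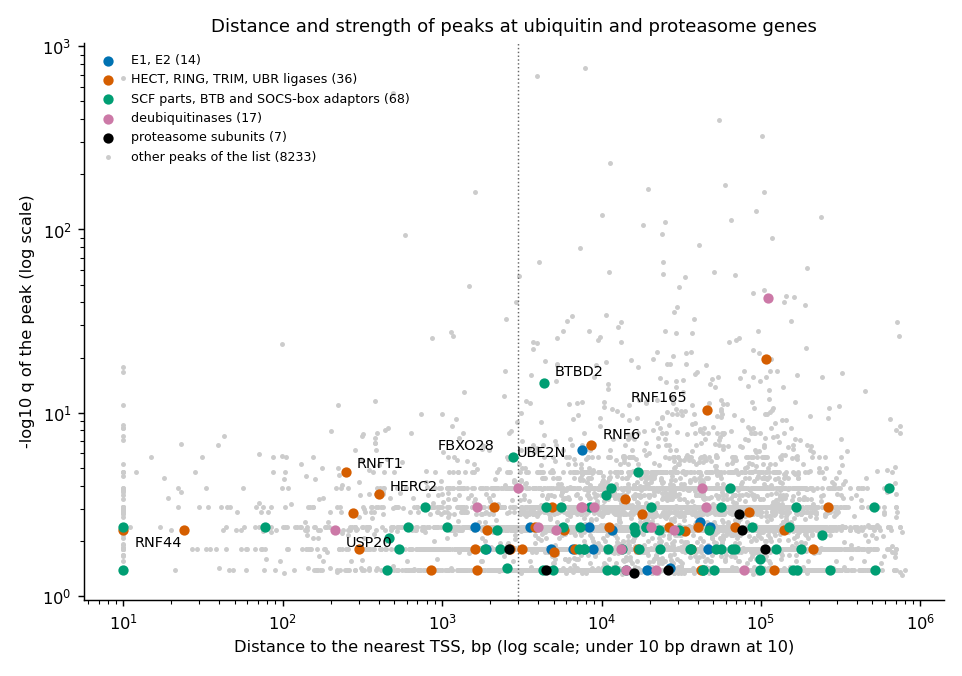
Distance from the nearest TSS in bp (horizontal) against −log10 q (vertical), both on log scales, for the 142 ubiquitin and proteasome gene peaks (colored by class) and the other 8233 peaks of the list (grey). Peaks under 10 bp are drawn at 10 bp and the dotted line marks 3 kb. Most pathway peaks lie in the same low range of strength as most of the rest, and 32 of them are within 3 kb.

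Counted by gene, the share of the pathway with a peak was close to that of all genes. Of 422 genes with these prefixes among 14357 protein-coding genes, 101 had a peak at any distance (23.9%, 20.1 to 28.2%), against 25.7% of all genes. The 422 include 16 genes that match a prefix, such as USP6NL and UBASH3A, but belong to no class used here. Of these 16, 0 had a peak (0 to 19.4%, an interval that leaves out 25.7%). Within 3 kb, 31 had a peak (7.35%, 5.22 to 10.2%), against 5.61% of all genes, a value inside the interval. FBXO2 was the only one of the 102 symbols with no match in the gene table.

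The classes had few genes each, and their shares stand beside the 25.7% of all genes with a peak. Of the classes counted below, only TRIM ligases (10.3%, 4.06 to 23.6%) had an interval that left out 25.7%. The highest share was that of BTB adaptors (34.5%, 23.4 to 47.7%). Among E2 enzymes 9 of 32 had one, among F-box and other SCF genes 19 of 61, among BTB adaptors 19 of 55 and among deubiquitinases 14 of 50. Among RING ligases the count was 19 of 81, among HECT ligases 4 of 15, among SOCS-box adaptors 5 of 26 and among proteasome subunits 5 of 34. Among TRIM ligases it was 4 of 39. Within 3 kb, 7 of 61 SCF genes had a peak (11.5%, 5.67 to 21.8%) and 3 of 15 HECT ligases (20.0%, 7.05 to 45.2%). Both intervals left out the 5.61% of all genes, and those of the other classes counted here took it in. No peak was assigned to VHL, to any cullin, to SKP1, BTRC, ITCH, the SMURF and WSB genes, the ubiquilins (UBQLN) or the OTUD deubiquitinases. Differences between classes were not tested.

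**Figure D2:**
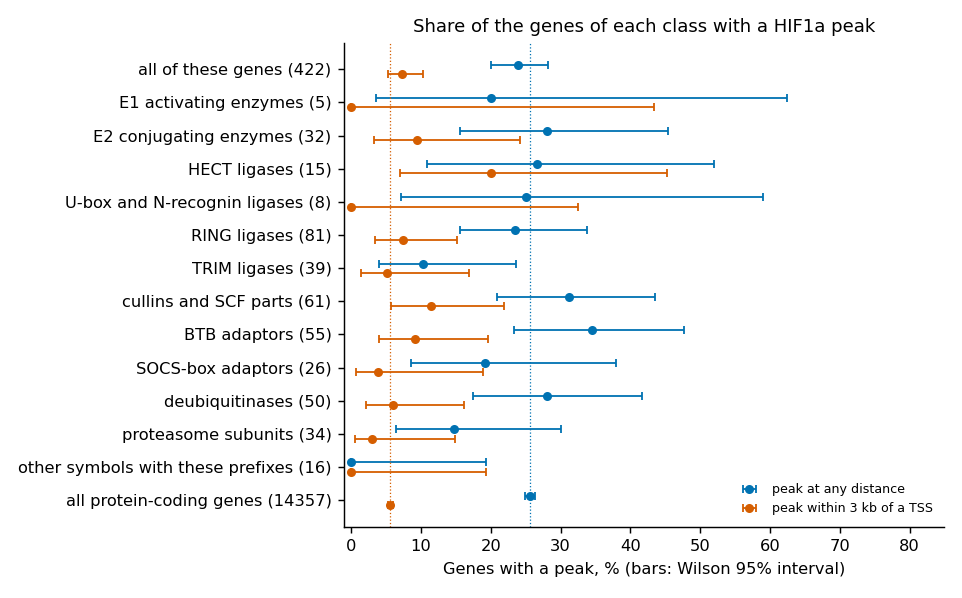
Share of the genes of each class that had a HIF1α peak at any distance and within 3 kb, in percent, with Wilson 95% intervals as bars, with dotted lines at the shares over all 14357 protein-coding genes. The shares over all 422 genes with these prefixes, 23.9% and 7.35%, stand beside 25.7% and 5.61% for all genes, and the intervals of the classes are wide.

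Of 27 genes known to act on HIF1α protein, which the prefixes take in only in part, 24 were in the gene table and 7 of these had a peak (29.2%, 14.9 to 49.2%), against 25.7% of all genes, a value inside the interval. Their peaks are given as a description. USP20 and USP33 are paired deubiquitinases that bind VHL, and in human cells USP20 removes ubiquitin from HIF1α. The USP20 peak was 214 bp from its TSS, on chromosome 17 from 6008305 to 6008488, with 9 HIF1α fragments over 4 IgG fragments and a −log10 q of 2.28. The USP33 peak, on chromosome 8 from 19341895 to 19342168, lay 2989 bp out, with 11 fragments at the floor and a −log10 q of 3.88. SIAH2, a RING ligase that in mammals sends prolyl hydroxylases to the proteasome, had a peak at 5819 bp with 11 HIF1α fragments over 6 IgG fragments (chromosome 9, 23760436 to 23760550). Both members of the USP20 and USP33 pair thus had a peak within 3 kb, and the SIAH2 peak was within 10 kb.

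FBXW7, the F-box protein that marks cyclin E and MYC and also HIF1α in human cells, had its 2 peaks far away. They were 87642 and 98926 bp from the TSS on chromosome 4, with 9 and 8 fragments, and both also carried an Ensembl identifier. MDM2, the ligase of p53, had 1 peak at 23945 bp with 8 fragments at the floor. Outside the ubiquitin enzymes, the asparaginyl hydroxylase HIF1AN had 2 peaks of 9 and 7 fragments, and the prolyl hydroxylase EGLN3 had 3 peaks of 32, 7 and 11 fragments. The EGLN3 peak of 32 fragments covered the TSS but stood over a high background of 7.43. Its fold enrichment was 3.92 and its −log10 q 7.05. USP20, USP33 and EGLN3 were the 3 genes of the list of 27 with a peak within 3 kb, beside 5.61% of all genes. The difference was not tested.

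Among the enzymes at the top of the cascade, only UBA2, the catalytic subunit of the activating enzyme for the ubiquitin-like protein SUMO, had a peak. It lay 11647 bp from a start site shared with PDCD2L, on chromosome 11 from 11124888 to 11125035, with 9 HIF1α fragments over 4 IgG fragments. The other 4 E1 genes in the table, those of ubiquitin and related modifiers, had none.

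E2 enzymes had 13 peaks, none beyond 100 kb, at a median of 8399 bp. UBE2N, which builds chains used in DNA repair and inflammatory signaling, had the peak of highest −log10 q at 7560 bp, on chromosome 1 from 44875908 to 44876023. It held 14 HIF1α fragments, with 38 IgG fragments in the surrounding 1 kb, a −log10 q of 6.24. at a fold enrichment of 6.22 A second UBE2N peak stood at 3553 bp with 9 fragments at the floor. UBE2V1, an inactive partner of UBE2N, also had 2 peaks, at 8890 and 19382 bp, of 8 and 7 fragments, at a locus shared with TMEM189. UBE2N and UBE2V1 thus had 2 peaks each, the farthest at 19382 bp, while the related UBE2V2 had none.

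Within 3 kb, the E2 class had 2 peaks (15.4%, 4.33 to 42.2%), against 13.0% of all peaks. UBE2D3, a conjugating enzyme that works with many RING ligases, shared with MANBA a peak at 1892 bp (chromosome 4, 60896751 to 60896963) in which 14 HIF1α fragments stood over 11 IgG fragments, for a −log10 q of 1.81. at a fold enrichment of 3.07 The peak nearest the UBE2E1 and UBE2E2 genes was at 1610 bp (chromosome 2, 37078014 to 37078121) with 9 fragments at the floor, and that gene pair had 2 more at 4790 and 46394 bp. UBE2E3, of the same subfamily, had peaks of 10 and 9 fragments at 41679 and 47567 bp, and the peak of 10 had a −log10 q of 2.53. UBE2A, which ubiquitinates histone H2B, had 1 peak at 8399 bp, UBE2D1 had 1 at 6581 bp, and UBE2J2, an enzyme of the endoplasmic reticulum membrane, had 1 at 26751 bp, with 9, 8 and 10 fragments.

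HECT ligases, which carry the ubiquitin themselves before passing it on, had 7 peaks near 4 genes. HERC2, a very large ligase of the DNA damage response, had its peak 401 bp from the TSS on chromosome 1 from 131806221 to 131806334, with 12 HIF1α fragments, 46 IgG fragments in the surrounding 1 kb and a −log10 q of 3.59. That −log10 q was the highest of the class. WWP2 had a peak at 849 bp (chromosome 11, 19043652 to 19043790), though with 7 fragments over 4 IgG fragments it was at the lower end of the list. NEDD4, a ligase of membrane proteins, shared its 3 peaks with PRTG, at 1605, 17843 and 26634 bp. Of these, the peak at 1605 bp (chromosome 10, 8281915 to 8282026) had 8 fragments over 4 IgG fragments, and the peak at 17843 bp had 10 fragments and a −log10 q of 2.81. UBE3C, which acts at the proteasome, had peaks of 9 fragments each at 11162 and 33419 bp, both shared with DNAJB6.

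The N-recognin ligases UBR1 and UBR2, which degrade proteins according to their first residue, had 1 peak each. The UBR1 peak had 10 fragments at the floor at 4872 bp (chromosome 5, 26265731 to 26265856). The UBR2 peak had 10 HIF1α fragments over 6 IgG fragments at 16820 bp, so that the same pileup gave a −log10 q of 3.07 at UBR1 and 1.81 at UBR2.

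RING ligases had 23 peaks near 19 genes. Beyond 100 kb there were 5 (21.7%, 9.66 to 41.9%), against 17.1% of all peaks. Within 3 kb there were 7 (30.4%, 15.6 to 50.9%), against 13.0%. Neither difference was tested. RNFT1 had a pair of the peaks within 3 kb, on chromosome 19 from 7549912 to 7550034 and from 7551134 to 7551352. They were 1099 bp apart and at 248 and 277 bp from start sites of the gene. RNFT1 encodes a membrane protein with a RING domain. The peak at 248 bp had 12 fragments at the floor and a −log10 q of 4.76. The peak at 277 bp had 13 HIF1α fragments over 7 IgG fragments and a −log10 q of 2.82.

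The other 5 RING peaks within 3 kb had a lower −log10 q. The RNF44 peak covered the TSS (chromosome 13, 11090717 to 11090898) with 9 HIF1α fragments over 4 IgG fragments. MARCH6, a ligase of the endoplasmic reticulum membrane that acts on enzymes of sterol synthesis, had a peak 24 bp from a start site shared with ROPN1L (chromosome 2, 78316279 to 78316431), also with 9 over 4. RNF139, another sterol-linked ligase of that membrane, had 10 HIF1α fragments over 5 IgG fragments at 1904 bp (chromosome 2, 138470729 to 138470877). RNF4, which recognizes SUMO chains, had 7 fragments at the floor at 1649 bp (chromosome 4, 82590620 to 82590755). MARCH4 had 8 at the floor at 2660 bp (chromosome 7, 23387856 to 23388027). The −log10 q of these 5 ran from 1.38 at RNF4 to 2.28 at RNF44, MARCH6 and RNF139.

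Some RING peaks farther out had a higher −log10 q. RNF165, a ligase that promotes BMP signaling in mice, had 25 HIF1α fragments over 9 IgG fragments, a −log10 q of 10.4 at a fold enrichment of 6.22, at 45573 bp on chromosome Z from 2037152 to 2037275. RNF6 had 14 fragments at the floor, a −log10 q of 6.70 at a fold enrichment of 6.53, at 8627 bp (chromosome 1, 178042544 to 178042703). RNF123, which helps degrade the cell cycle inhibitor p27, had 26 fragments, but these stood over 22 IgG fragments, so its fold enrichment was 3.07 and its −log10 q 3.39, at 13933 bp.

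RNF144B, a RING-between-RING ligase induced by p53 in human cells, had 4 peaks, the most of any RING gene. All 4 lay on the lower-coordinate side of its TSS on chromosome 2, at 83920, 138586, 211172 and 264313 bp, with 14, 9, 8 and 10 fragments. The peak of 14 fragments (60203560 to 60203887) stood over 8 IgG fragments and had a −log10 q of 2.87, below the 3.07 of the 10 fragments at the floor farthest out. The remaining RING peaks were single ones of 7 to 9 fragments near RNF24, RNF216, RNF215, RNF146, RNF212, RNF217 and RNF32, at 3153 to 121291 bp. RNF24 at 3153 bp was the peak just outside 3 kb, and USP33 at 2989 bp was the one just inside.

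**Figure D3:**
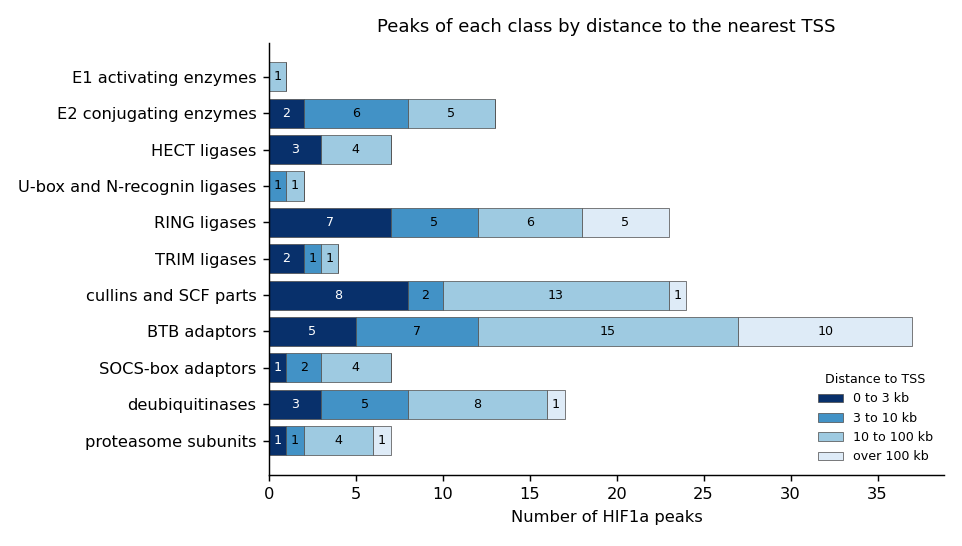
Number of peaks (horizontal) of each class of gene (rows), with each bar split by distance from the nearest TSS into 0 to 3, 3 to 10, 10 to 100 and over 100 kb. The RING and SCF bars hold 7 and 8 peaks within 3 kb, while 10 of the 37 BTB adaptor peaks are beyond 100 kb. Of all 8375 peaks, 13.0% are within 3 kb and 17.1% beyond 100 kb.

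TRIM ligases, RING proteins with a tripartite motif, had 4 peaks. TRIM35 had 8 fragments at the floor at 300 bp (chromosome 3, 105351321 to 105351429), and TRIM67, a largely neuronal member in mammals, had 10 at the floor with a −log10 q of 3.07 at 2118 bp (chromosome 3, 40717096 to 40717224). TRIM2 at 5045 bp (chromosome 4, 19763167 to 19763420) had 8 fragments and a −log10 q of 1.73. TRIM71, a stem cell protein also called LIN41, had 7 over 4 IgG fragments at 42136 bp.

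F-box proteins, the target-binding parts of SCF ligases, had all 24 peaks of their class. Within 3 kb there were 8 (33.3%, 18.0 to 53.3%), against 13.0% of all peaks, a difference that was not tested. Of the 3 pathway peaks that covered a TSS, 2 were here. The FBXO22 peak, on chromosome 10 from 3950013 to 3950194, had 9 fragments at the floor and covered a start site that also carried the name TMEM266. FBXO22 degrades histone demethylases and other nuclear proteins. FBXO34 had 2 peaks 515 bp apart on chromosome 5, a peak over its TSS (56427552 to 56427657) of 7 fragments and a peak at 540 bp (56428173 to 56428302) of 8, both at the floor.

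FBXO28 had the F-box peak of highest −log10 q, 5.71 at a fold enrichment of 6.09. It held 13 fragments at the floor, at 2784 bp on chromosome 3 from 17725868 to 17726198. FBXL4, a mitochondrial protein that restrains BNIP3-driven mitophagy in human cells, had 9 HIF1α fragments over 4 IgG fragments at 2222 bp (chromosome 3, 71680826 to 71681067). FBXO40, a muscle protein in mammals, had 9 fragments at the floor at 613 bp (chromosome 1, 77530817 to 77530965). FBXO47 had 9 at 463 bp with 41 IgG fragments in the surrounding 1 kb (chromosome 27, 6889211 to 6889353), for a −log10 q of 2.07. So, apart from FBXO28, the F-box peaks near a start site had 7 to 9 fragments.

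FBXW11, one of the β-TrCP proteins that degrade β-catenin and IκB, had 3 peaks on the higher-coordinate side of its TSS on chromosome 13. They were at 1864 bp (3604934 to 3605150, 8 fragments), 64298 bp (3667368 to 3667499, 11 fragments) and 166464 bp (3769534 to 3769698, 10 fragments), with −log10 q of 1.81, 3.88 and 3.07. The nearest had the lowest −log10 q, but the Poisson interval of its 8 fragments (3.45 to 15.8) takes in the other 2 pileups. Together with FBXO28, the 2 distal FBXW11 peaks were the 3 F-box peaks whose −log10 q was 3 or more. Among the rest, FBXO4 had a peak at 50572 bp and FBXO30 at 47219 bp. The peaks of FBXO21 (7298 bp) and FBXW8 (17276 bp) were 44180 bp apart on chromosome 15. FBXL7, FBXO2, FBXO9, FBXO15, FBXO16, FBXO38 and FBXO41 had a peak each at 7169 to 23080 bp, with 7 to 9 fragments.

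BTB adaptors of CUL3 ligases and their relatives had the most peaks, 37 near 19 genes, and also the most distal ones. Beyond 100 kb there were 10 (27.0%, 15.4 to 43.0%), against 17.1% of all peaks, and 7 of the 10 belonged to KLHL4. Within 3 kb there were 5 (13.5%, 5.91 to 28.0%), against 13.0% of all peaks. KLHL36 was nearest, with 9 fragments at the floor 77 bp from its TSS on chromosome 11 from 16837134 to 16837343. KLHL24, an adaptor for keratin 14 in human skin, had 7 fragments at 450 bp (chromosome 9, 2775841 to 2775958) with 38 IgG fragments in the surrounding 1 kb. KLHL9, which acts on Aurora B in dividing human cells, had 10 at the floor at 777 bp (chromosome 4, 3230206 to 3230321), for a −log10 q of 3.07.

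BTBD10 had 9 fragments at the floor at 1070 bp (chromosome 5, 7795237 to 7795349) and a second peak of 11 at 11500 bp. KLHL32 had 10 over 7 IgG fragments at 2566 bp (chromosome 3, 72617312 to 72617458) and 11 over 4 at 10607 bp, with −log10 q of 1.43 and 3.57. In both genes the farther peak had the higher −log10 q, on pileups too close to rank.

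BTBD2 had the highest fold enrichment of all 142 peaks. On chromosome 28, from 2236462 to 2236623, 21 HIF1α fragments stood at the floor, which gave a −log10 q of 14.5 at a fold enrichment of 9.58, rank 120 of the 8375 peaks. This peak was 4370 bp from the TSS, and a second BTBD2 peak of 10 fragments followed 996 bp farther out, at 5528 bp (2237620 to 2237785). BTBD2 encodes a BTB protein that binds topoisomerase I in human cells. KBTBD2, which degrades a regulatory subunit of PI3-kinase in mice, came next in the class among peaks at the floor, with 12 fragments at 17035 bp and a −log10 q of 4.76 (chromosome 2, 48014388 to 48014497).

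KLHL4 had 8 peaks, more than any other gene of the pathway. On chromosome 4 they lay 4 on each side of its TSS, at 178252, 240459, 271798 and 510070 bp on the lower-coordinate side and at 16282, 150968, 159198 and 167920 bp on the other. All were weak, with 7 to 10 fragments, and the farthest (7601334 to 7601479) had the highest −log10 q, 3.07. KLHL1, a neuronal member in mammals, had 3 peaks on chromosome 1, at 65410, 515830 and 640387 bp. The KLHL1 peak at 515830 bp had 25 HIF1α fragments over 31 IgG fragments, so its fold enrichment of 2.17 was the lowest of the pathway, and the one at 640387 bp, with 11 at the floor, was the most distant.

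BTBD6, which promotes neurogenesis in fish embryos, had 3 peaks on the lower-coordinate side, at 36582, 52595 and 123699 bp, of 8, 8 and 9 fragments. KLHL24 had 2 more peaks beside the one at 450 bp, at 19060 and 20481 bp, of 9 and 10 fragments, and all 3 also carried the name YEATS2. KLHL14 had a pair that flanked its TSS on chromosome 2, at 7748 bp on the lower side and 8432 bp on the higher side, of 9 and 10 fragments. BTBD9 had 2, at 55947 and 68321 bp. Single peaks of 7 to 10 fragments were near KBTBD8 (4302 bp), KLHL42 (4505 bp), KLHL8 (7755 bp), BTBD19 (10914 bp), BTBD3 (23195 bp), KBTBD11 (43079 bp) and KLHL35 (43335 bp).

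**Figure D4:**
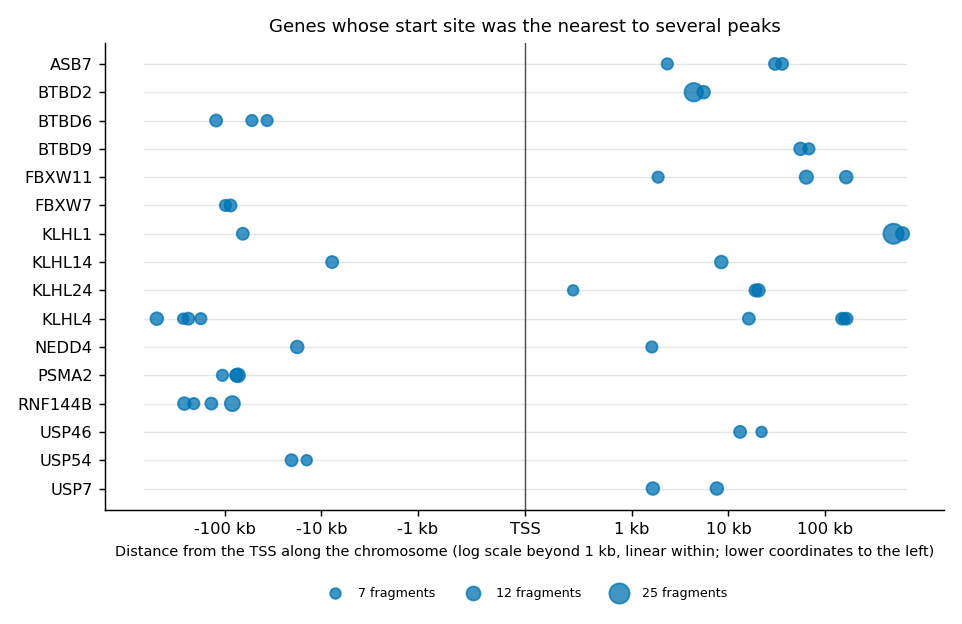
Genes with 2 or more peaks nearest to the same start site, by signed distance from the TSS in bp (horizontal, linear within 1 kb and logarithmic beyond, negative on the lower-coordinate side) for each gene (rows), with the pileup as point size. KLHL4 has 4 peaks on each side, and the 4 RNF144B peaks are all on the lower side. Peaks that cover a TSS were left out of this count, so FBXO34 is not drawn.

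SOCS-box adaptors had 7 peaks. None reached a −log10 q of 3 (0 to 35.4%, an interval that takes in the 26.5% of all peaks). ASB7 had 3 on the higher-coordinate side of its TSS on chromosome 10, at 2322, 30413 and 36023 bp, of 8, 9 and 9 fragments. The ASB7 peak at 2322 bp (17790543 to 17790684) was the only one of the class within 3 kb. SOCS5 and SOCS6, inhibitors of cytokine and growth factor signaling, had 1 peak each, at 55757 bp with 8 fragments over 4 IgG fragments and at 5703 bp with 9 at the floor (chromosome 2, 93549657 to 93549779). ASB12 at 4953 bp and ASB18 at 12127 bp had 8 and 7 fragments.

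Deubiquitinases had 17 peaks near 14 genes, all of the USP family, and 8 of the 17 had a −log10 q of at least 3 (47.1%, 26.2 to 69.0%), against 26.5% of all peaks, a difference that was not tested and rests on few peaks. Beside USP20 and USP33, the third peak within 3 kb was that of USP7, which stabilizes both p53 and its ligase MDM2. USP7 had 2 peaks of 10 fragments at the floor, at 1645 bp (chromosome 14, 10321011 to 10321190) and 7579 bp (10326945 to 10327126), each with a −log10 q of 3.07. USP34, a regulator of Wnt signaling, had 11 fragments at 42927 bp with 35 IgG fragments in the surrounding 1 kb and a −log10 q of 3.88 (chromosome 3, 2286461 to 2286591). USP10, which acts on p53, USP45, a DNA repair enzyme, and USP22, a histone deubiquitinase of the SAGA complex, each had 10 at the floor, at 8975, 7407 and 45123 bp.

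Other USP peaks, near USP12, USP25, USP35, USP38, USP46 and USP54, had 7 to 11 fragments. USP46 and USP54 had 2 peaks each, at 13217 and 22047 bp and at 14211 and 20424 bp, and USP12 and USP46, close relatives that share an activating partner, both had a peak of 9.

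**Figure D5:**
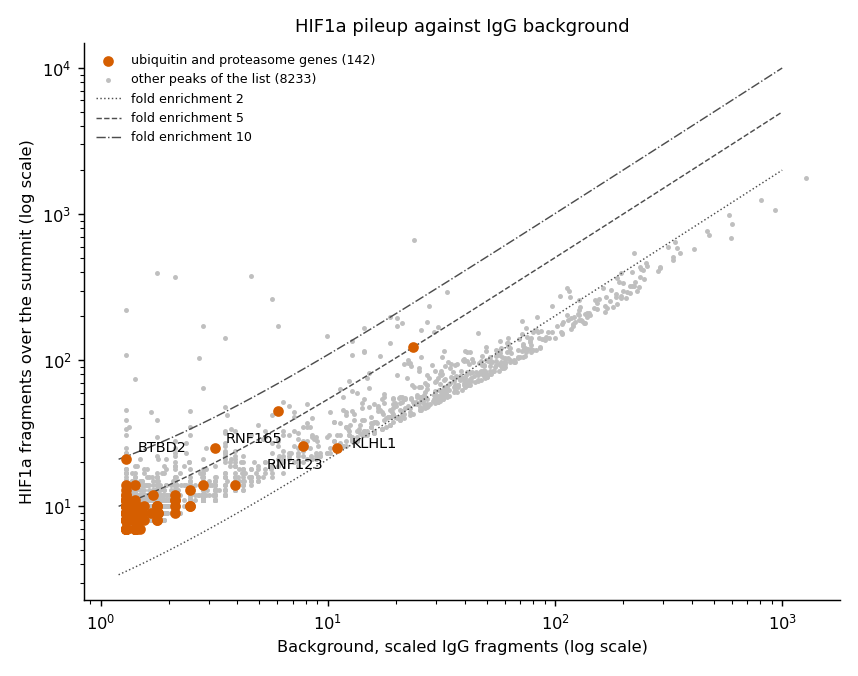
HIF1α fragments over the summit (vertical) against the background in scaled IgG fragments (horizontal), both on log scales, for the 142 pathway peaks (colored) and the other 8233 peaks (grey), with lines of equal fold enrichment. Most pathway peaks sit at the floor of 1.30 with 7 to 14 fragments, and BTBD2 has 21 fragments at the floor.

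Proteasome subunits had 7 peaks near 5 genes. None had a −log10 q of at least 3 (0 to 35.4%, an interval that takes in the 26.5% of all peaks). Only PSMA6, an α subunit of the core particle, had a peak within 3 kb, with 8 fragments at the floor at 2609 bp (chromosome 5, 36367899 to 36368006). PSMD10, an assembly chaperone of the regulatory particle also called gankyrin, had 7 over 4 IgG fragments at 4474 bp (chromosome 4, 14166859 to 14166996). PSMC1, an ATPase subunit of the regulatory particle, had 7 at 16049 bp (chromosome 5, 43985122 to 43985260), and its −log10 q of 1.34 was the lowest of the pathway. PSMB7, a catalytic β subunit, had 7 at the floor at 26265 bp (chromosome 17, 9667320 to 9667492). PSMA2, another α subunit, shared with C7orf25 a group of 3 peaks on chromosome 2, at 73313, 76328 and 106355 bp, of 12, 10 and 8 fragments. The nearest of the 3 (51070836 to 51070949) stood over 6 IgG fragments and had the highest −log10 q of the class, 2.81.

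Several genes had more than 1 peak, and neighboring genes seldom shared a region. Of 101 genes counted by the first matching symbol, 76 had 1 peak and 25 had more, and the 10 genes with 3 or more held 36 of the 142 peaks. The members of such a group lie near 1 gene and are not independent hits on the pathway. Peaks of different pathway genes came within 50 kb of each other in 2 places, KLHL36 with USP10 on chromosome 11 (a gap of 12196 bp) and FBXO21 with FBXW8 on chromosome 15. The 142 peaks were spread over 22 of 34 chromosomes, with 29 (20.4%) on microchromosomes, from chromosome 11 up, against 23.8% of all peaks. They were as short as the rest, at a median of 139 bp against 137 bp.

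Symbols shared by a start site limit the assignment. Of the 142 peaks, 30 (21.1%, 15.2 to 28.6%) carried 2 symbols, against 6.97% of all peaks, and a peak with 2 symbols has 2 chances to match a prefix. Such peaks were the only E1 peak, 5 of the 7 HECT ligase peaks, 4 of the 7 of proteasome subunits and 7 of the 13 of E2 enzymes. Among the 112 peaks with a single symbol, 26 were within 3 kb (23.2%), against 12.5% of all peaks with a single symbol.

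A second list held 133 genes of the pathway that mostly lie outside the prefixes, and 32 of them had a peak. Of the 118 in the gene table, 31 did (26.3%, 19.2 to 34.9%), against 25.7% of all genes. Within 3 kb, 8 of the 118 had a peak, beside 5.61% of all genes, and the shares were not tested against each other. Among these 8, POMP, the chaperone of core maturation, had a peak 142 bp from its TSS with 9 fragments (chromosome 1, 177134506 to 177134652). PSMG1, an assembly chaperone, shared with BRWD1 a peak at 108 bp with 11 at the floor (chromosome 1, 109323269 to 109323848) and another at 521 bp with 10. PSMG2, PSMG3, PSMG4 and PAAF1, also on this list, had no peak. ADRM1, a ubiquitin receptor of the proteasome, had 10 at the floor at 2405 bp (chromosome 20, 7826386 to 7826501).

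Ligases and a deubiquitinase were also among the genes with a peak within 3 kb. PELI1, a ligase of Toll-like receptor signaling, had 9 fragments at the floor at 286 bp (chromosome 3, 10229693 to 10229921) and MIB1, a ligase of Notch ligands, had 10 at the floor at 2127 bp (chromosome 2, 102474989 to 102475122). ANAPC16, a subunit of the anaphase-promoting complex, shared its start site with DDIT4, a hypoxia-induced inhibitor of mTOR, and the 3 peaks there cannot be assigned to either gene. On chromosome 6 they lay at 2115 bp (12172485 to 12172604), 2468 bp (12172121 to 12172251) and 3118 bp (12171313 to 12171601), with 9, 16 and 14 fragments and −log10 q of 1.38, 4.05 and 6.22. YOD1, a deubiquitinase, had 10 at the floor at 2455 bp (chromosome 26, 2621460 to 2621576).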

How the data were processed

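Per the labels and the study's methods, the authors trimmed reads with Trimmomatic, aligned them to galGal6 with Bowtie2, handled alignments with SAMtools and called narrow peaks with MACS2 on pooled HIF1α against pooled IgG libraries, at versions not given in the sources used here. For each peak the authors deposited the pileup, a signal in whole fragments, the fold enrichment, a ratio of pileup plus 1 to background plus 1, and −log10 p and q values (highest q 0.0496), with the nearest TSS, its distance and symbols. No column held values of a single library, and 0 columns were left without a match.

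The background was computed from pileup and fold enrichment. Recomputed Poisson −log10 p differed from the deposited value by at most 0.00165 at 8369 peaks. IgG fragments were counted by dividing the background by 0.354, or by that step spread over 1 or 10 kb with fragments of 105 bp. Counts were whole (within 0.003, 0.01 or 0.05 fragments) at every pathway peak above the floor, 47 over the summit, 18 over 1 kb and 3 over 10 kb. At the 74 peaks at the floor no count could be made. Library depths are not known from the list. Shares carry Wilson 95% intervals and medians intervals from ranks, without tests. Genes were counted in the RefSeq table of GRCg7b, used for names only. A peak with 2 symbols was grouped under the first that matched.

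Members, classes and lists were chosen with earlier results of these data known. Peaks named in full were those within 3 kb of a TSS, the 3 of each class with the highest −log10 q, the 5 highest by fold enrichment or pileup, genes with 3 or more peaks, genes acting on HIF1α, and proteasome subunits; others are given in brief. A few peaks that meet these criteria are not reported here. Analyses used Python 3.11.15, numpy 2.4.6, pandas 2.3.3, scipy 1.17.1 and matplotlib 3.10.9, and scripts were tested on simulated data.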

Additional observations from a re-analysis of the deposited data

How the results depend on the processing

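Under 9 alternatives for 7 results, 51 of 63 values stayed within 1.5 times the main count, or within the 95% interval of the main share or median, and 12 moved beyond. With a −log10 q of at least 2, 78 peaks and 63 symbols remained, the median fold enrichment was 4.35, and 14.7% of the pathway genes had a peak, against 16.8% of all genes. With at least 3, there were 33 peaks and 30 symbols, a median fold enrichment of 4.79, a median −log10 q of 3.39, and 7.11% of the genes, against 8.88%. With single-symbol peaks only, the share of genes was 19.2%, against 22.6%. With 1 fragment fewer per peak, 29 peaks were lost, the median fold enrichment was 4.16 and the share of genes 19.7%, against 22.2%. This alternative and that without genes of 4 or more peaks were chosen after seeing the data. Over all 9, the share of peaks within 3 kb ran from 21.2 to 24.6%, against 12.5 to 14.8% of all peaks, and that within 10 kb from 42.9 to 51.5%, against 29.8 to 32.3%.

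No paired analysis was possible because the peaks were called on pooled libraries, and no library was left out, since the list has none apart. The planned count of short letters in promoters was not run, since no promoter sequence was used here. At 7 to 9 fragments, held by 94 of the 142 peaks, the depth cannot rank peaks.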
